A study of Mus musculus with 2 samples.

Results

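Rad21, a core subunit of the cohesin complex, was profiled by ChIP-on-chip across a 1200 kb interval of mouse chromosome 3 (chr3:35600000-36800000, mm9) that holds the genes Mccc1, Qrfpr and Anxa5. The interval was chosen by position. Its members are the 1 kb windows with at least 3 probes, and 922 of the 1200 possible windows had them, out of 14951 windows on the whole array. The remaining 278 windows held fewer than 3 probes, so the interval was not covered without breaks. In all, 10018 of the 170542 probes used lie in it.

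The cells were RAG cells, which derive from a renal adenocarcinoma of the BALB/c mouse strain and in which the study calls Pax6 off. The study placed loop anchors on a polymer model of the Pax6 locus at CTCF sites that lay on Rad21 peaks. In that model each bead stands for 1 kb of chromatin. There was 1 group of 2 arrays, replicates 1 and 2, each made from its own flask, with no other treatment, genotype or cell line, so that channels, positions and replicates are all that can be set against each other. Cross-linked ChIP DNA and input DNA were both amplified and reamplified, then hybridised together in Cy3 and Cy5 without a dye swap. The identity of a cell line cannot be checked from genomic DNA on such an array.

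Cohesin is a ring-shaped complex that holds sister chromatids together and extrudes loops of chromatin. Its movement along the fiber is halted at sites bound by CTCF, a zinc finger protein, and mostly at sites whose motif points toward the loop. Rad21 sites therefore tend to lie on CTCF sites, in introns and between genes as well as at promoters, and the strand of the motif gives the direction of a loop anchor.

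Every ratio below is the log2 of Cy3 over Cy5, centred on the median of each array. This direction opposes the labels, which place the input in Cy3 and the ChIP DNA in Cy5 on both arrays. It was used because the log2 table the authors deposited ran with Cy3 over Cy5 (Pearson r across the probes of the interval 0.971 for replicate 1 and 0.967 for replicate 2, with probes not independent). Values are thus named by dye, and "higher in Cy3" says nothing of which DNA the dye carried. For this interval the median spot stood 39.5 and 50.6 times above its local background in Cy3 (replicates 1 and 2) and 18.3 and 21.0 times in Cy5. Spots well above background made up 96.8% and 92.0% in Cy3 and 99.0% and 94.6% in Cy5. Saturated spots numbered 151 and 97 in Cy5 but 5 and 1 in Cy3. The number of arrays limits the precision, since each error rests on 2 values. Each array lay on a slide of its own, so slide and replicate cannot be told apart.

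Stretches of probes higher in Cy3 were called from the running median of both arrays, which gave 17 regions, numbered 1 to 17 along the chromosome. The sequences that follow come from the reference genome (NCBIM37, the same build as mm9), not from the cells. The CTCF core was searched on both strands as CCANNAGNNGGC, and by name with at most 1 mismatch to its most common letters. Of the 6 regions with the highest running median, regions 4, 7 and 8 held a match within 500 bp of the summit that was covered by at least 1 probe. They are shown on the strand of the match, with the match in capitals, because they put a possible CTCF core beside the tallest signals of the interval.

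Region 4, chr3:35872634-35872733, plus strand: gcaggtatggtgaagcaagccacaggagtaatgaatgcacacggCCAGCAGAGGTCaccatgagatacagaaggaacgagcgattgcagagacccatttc
Region 7, chr3:36080584-36080683, plus strand: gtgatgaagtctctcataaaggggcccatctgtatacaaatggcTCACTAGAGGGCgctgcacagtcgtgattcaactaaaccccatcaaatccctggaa
Region 8, chr3:36109225-36109324, plus strand: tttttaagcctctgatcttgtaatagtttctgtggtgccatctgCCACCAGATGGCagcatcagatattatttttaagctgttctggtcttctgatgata

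The match of region 8, CCACCAGATGGC, lay 33 bp from the summit and fitted both searches. That of region 7, TCACTAGAGGGC, lay 34 bp before its summit and that of region 4 shown here, CCAGCAGAGGTC, 346 bp after it, and both fitted the core only with 1 mismatch. A match describes the letters and is not a measured site. Regions 5, 9 and 14, the other three of that height, held no match within 500 bp of the summit. They are shown around the summit, without capitals, as tall signals with no such letters in this window.

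Region 5, chr3:35958963-35959122, plus strand: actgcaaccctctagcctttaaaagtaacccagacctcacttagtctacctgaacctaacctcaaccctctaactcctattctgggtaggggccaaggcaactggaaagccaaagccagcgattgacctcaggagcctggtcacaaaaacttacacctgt
Region 9, chr3:36341145-36341304, plus strand: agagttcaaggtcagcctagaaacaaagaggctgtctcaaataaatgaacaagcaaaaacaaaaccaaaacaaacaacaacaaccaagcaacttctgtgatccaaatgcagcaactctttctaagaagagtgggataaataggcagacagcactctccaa
Region 14, chr3:36396119-36396278, plus strand: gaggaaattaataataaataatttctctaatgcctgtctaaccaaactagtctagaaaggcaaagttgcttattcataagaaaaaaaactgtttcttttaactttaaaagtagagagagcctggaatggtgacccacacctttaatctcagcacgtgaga

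The same 12 letters, CCAGAAGAGGGC, were found in 4 of the 17 regions, and these were picked out after their values had been seen. The copies in regions 3, 4 and 10 are shown with 24 bases on either side, read on the strand of the match, to let the flanks be compared.

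Region 3, chr3:35862065-35862124, minus strand: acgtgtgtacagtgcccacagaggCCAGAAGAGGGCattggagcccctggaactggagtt
Region 4, chr3:35872072-35872131, minus strand: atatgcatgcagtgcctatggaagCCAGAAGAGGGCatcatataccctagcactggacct
Region 10, chr3:36344808-36344867, plus strand: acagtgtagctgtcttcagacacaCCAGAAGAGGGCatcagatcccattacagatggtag

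Over these 60 bases regions 3 and 4 were 70.0% identical. Region 10 was 51.7% identical to region 3 and 53.3% to region 4. None of the 4 copies was covered by a probe, the nearest probe being 74 to 114 bp away, so the ratio at these letters themselves was not measured. The 12 letters were present in 283 windows of the array, of which 34 (12.01%) were called higher in Cy3. In the interval 22 windows held them and 5 of these were called. No annotation of repeats was used here.

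Regions 2, 11 and 12 lay within 2 kb of a gene start. Their summits are shown with CG pairs in capitals, together with the stretch between the starts of Anxa5 and 1810062G17Rik, which point away from each other 292 bp apart.

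Region 2, Atp11b intron, chr3:35654007-35654166, plus strand: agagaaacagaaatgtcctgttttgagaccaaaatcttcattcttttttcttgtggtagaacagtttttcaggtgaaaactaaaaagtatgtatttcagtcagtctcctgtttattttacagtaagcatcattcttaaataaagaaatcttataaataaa
Region 11, Anxa5 intron, chr3:36373489-36373648, plus strand: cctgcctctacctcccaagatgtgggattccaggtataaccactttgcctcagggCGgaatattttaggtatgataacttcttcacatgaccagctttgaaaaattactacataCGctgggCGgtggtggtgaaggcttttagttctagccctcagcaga
Region 12, 1810062G17Rik intron, chr3:36375335-36375494, plus strand: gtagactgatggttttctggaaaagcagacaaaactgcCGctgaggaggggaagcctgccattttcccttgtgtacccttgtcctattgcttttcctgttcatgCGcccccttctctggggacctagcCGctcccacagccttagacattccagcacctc
Between the starts of Anxa5 and 1810062G17Rik, chr3:36374766-36375056, plus strand: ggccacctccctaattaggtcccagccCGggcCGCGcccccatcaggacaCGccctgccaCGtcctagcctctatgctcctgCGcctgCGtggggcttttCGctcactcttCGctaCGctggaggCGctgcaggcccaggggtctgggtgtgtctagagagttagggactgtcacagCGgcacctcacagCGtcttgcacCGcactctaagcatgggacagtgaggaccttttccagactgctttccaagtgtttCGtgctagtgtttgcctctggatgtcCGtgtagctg

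The stretch between the paired starts had a GC content of 61.2% and 16 CG pairs. The summits of regions 11 and 12 had 46.9% and 53.8% with 3 CG pairs each. That of region 2, past the start of Atp11b, had 28.1% and no CG pair.

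Across the interval, signal higher in Cy3 stood in narrow stretches, several of them in close groups with long distances between the groups. Limma with Benjamini-Hochberg adjustment over all windows called 44 of the 922 windows (4.77%) higher in Cy3, against 3.52% of all windows of the array. It called 50 (5.42%) higher in Cy5, against 4.63%. Without adjustment 86 and 195 windows of the interval had a limma p under 0.05. The share of all windows of the array at that unadjusted threshold is not given here. The shares of the interval and of the array were not tested against each other. A mean above 1 log2 unit was reached by 17 windows (1.84%), against 1.12% of all windows, and no window fell below -1. The 44 windows had a median of 0.84 and the 50 a median of -0.52. Under the alternatives tried, the number higher in Cy3 ran from 36 of 522 windows of 2 kb to 70 of 1514 windows of 500 bp. The number of windows differs between these lengths, so these counts cannot be set against each other directly. The number higher in Cy5 ran from 0, with a trended and robust variance prior, to 236, with arrays centred on the mode. All 17 windows above 1 log2 unit touched a called region, as did 38 of the 44. Windows and regions come from the same probe values, so this overlap is in part built in.

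**Figure D1:**
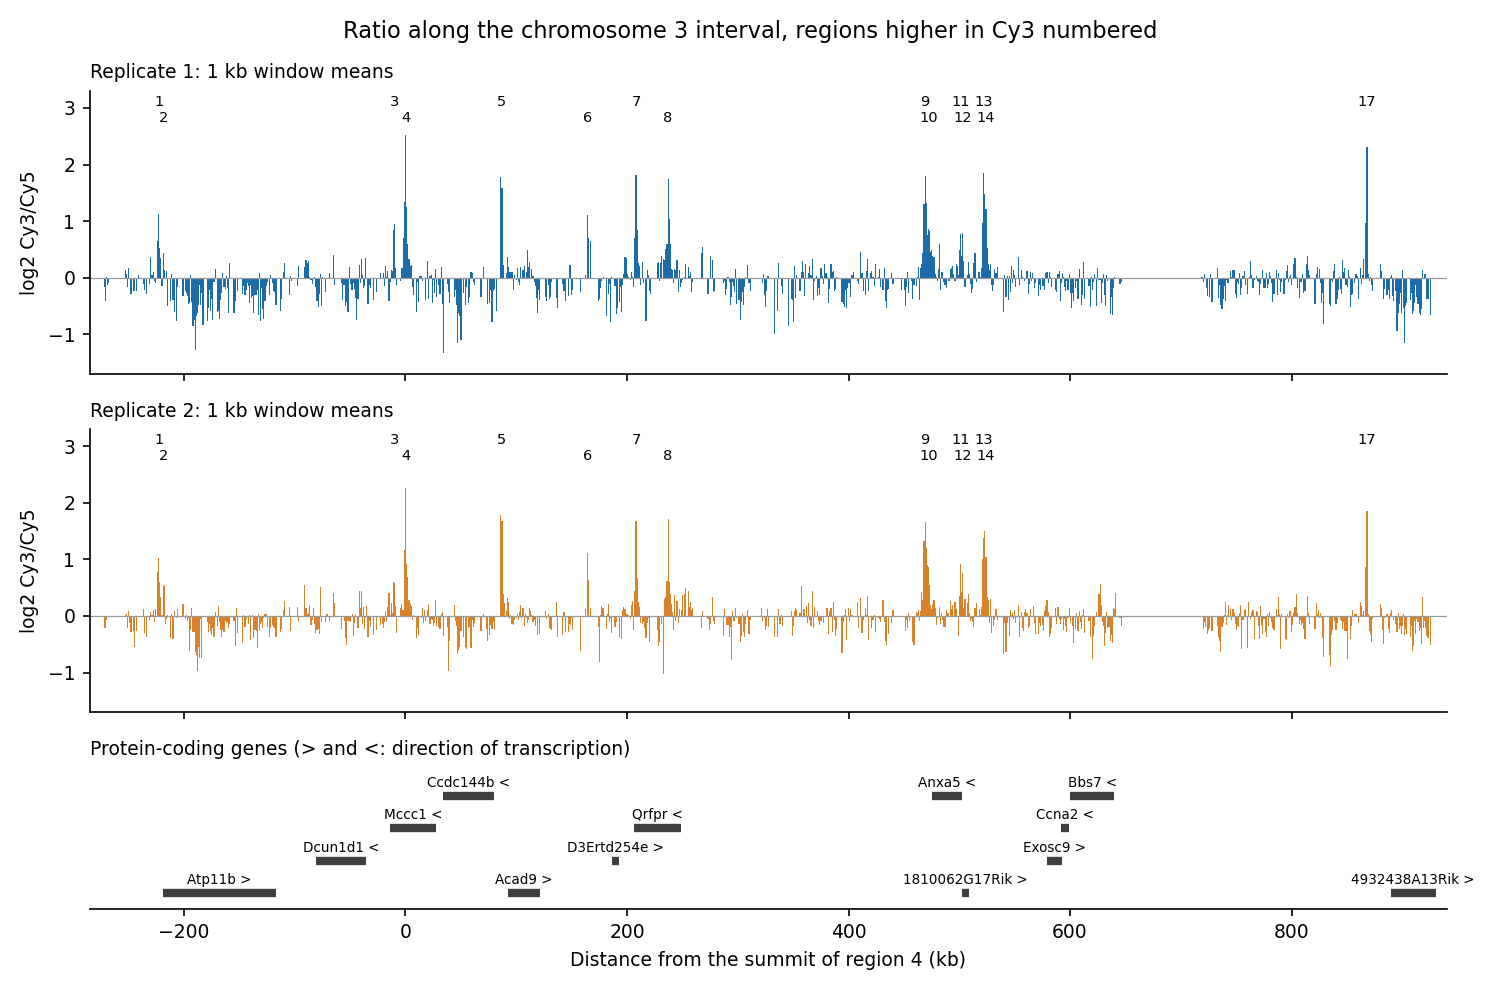
Mean log2 Cy3/Cy5 of each 1 kb window (y axis) against distance from the summit of region 4 in kb (x axis), with replicate 1 above, replicate 2 in the middle and protein-coding genes below. Numbers mark regions higher in Cy3, and 1 stretch of windows is not shown. The same narrow stretches rise on both arrays, with the highest window at region 4 (2.52 and 2.26), and long stretches between them stay near or below 0.

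The regions covered 23.96 kb, or 2.00% of the interval, at 14.2 regions per Mb. Of the 209 regions on the whole array 17 thus lay here. Their length ran from 540 to 3875 bp with a median of 1019 bp. Of the 922 windows 23 (2.49%) had their centre in one, against 1.71% of all windows. Of the 316 probes in the regions, 309 were above 0 on both arrays. Called on each array alone, the interval gave 15 regions on replicate 1 and 19 on replicate 2, and 14 of each overlapped one on the other array. Regions 1, 2 and 12 were not called on replicate 1 alone and region 10 not on replicate 2 alone, which left 13 called on both. Since these values chose the regions, the ratios of single regions are a description without a test. The threshold was 0.64 on the running median. The region just above it was region 3 (0.82).

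Region 4 (chr3:35871005-35874134, 45 probes) was the tallest, and no region of the array had a higher running median. It lies in an intron of Mccc1, which encodes the biotin-carrying subunit of methylcrotonyl-CoA carboxylase, an enzyme of leucine breakdown. Its running median peaked at 2.86. Over the whole region the mean ratio was 1.63 on replicate 1 and 1.41 on replicate 2 (1.52 ± 0.15, SD, n = 2), and all 45 probes were above 0 on both arrays. The window at its summit reached 2.39 ± 0.18 (SD, n = 2, limma adjusted p = 0.000304), the highest of the interval. The windows before and after it had means of 1.25 and 1.08, so the signal fell by more than 1 log2 unit within 1 window on either side. Region 3 lies 10.0 kb away in the same gene, inside an exon of a transcript of Mccc1 that retains an intron. It was lower (0.97 and 0.65, mean 0.81 ± 0.22, SD, n = 2), with a wider spread between arrays. At the start of Mccc1 itself, 27.3 kb from region 4, the window did not pass the threshold (0.16 and 0.28).

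**Figure D2:**
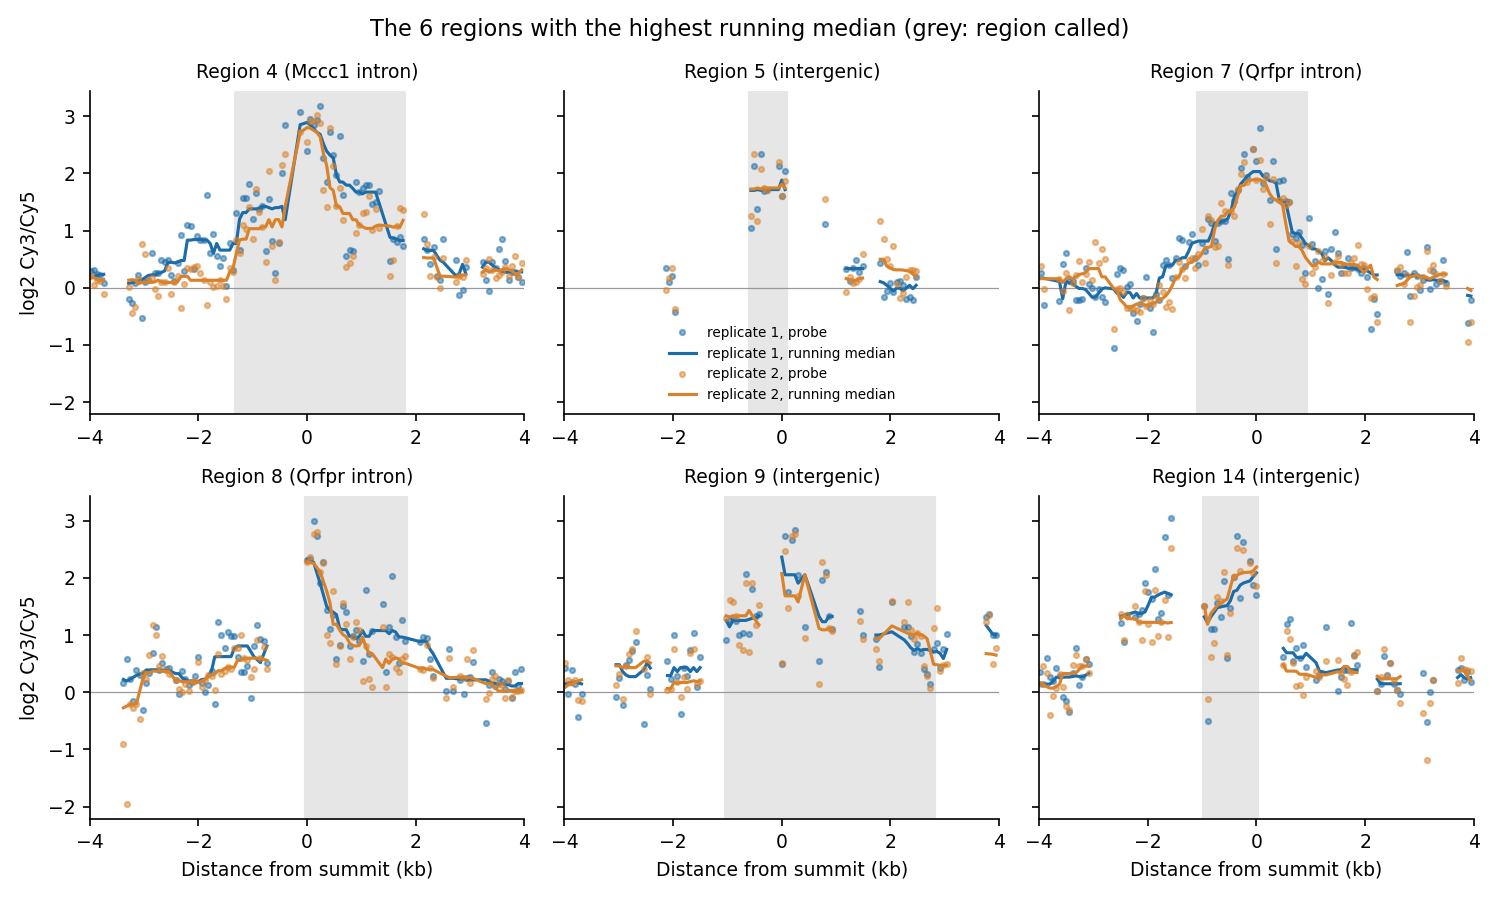
Log2 Cy3/Cy5 of each probe (points) and the running median of each array within 400 bp (lines) on the y axis, against distance from the summit in kb on the x axis, for the 6 regions with the highest running median. Grey marks the called region, and breaks in the lines are stretches without probes. Regions 4 and 7 rise and fall around the summit on both arrays, whereas in regions 5, 8, 9 and 14 the summit lies at the edge of an unmeasured stretch.

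Qrfpr, which encodes the receptor of the neuropeptide QRFP, held 2 regions in its introns. Region 7 (chr3:36079571-36081597) had a mean of 1.40 on replicate 1 and 1.25 on replicate 2 (1.33 ± 0.11, SD, n = 2) and a running median of up to 1.93. Region 8 (chr3:36109212-36111080), 28.6 kb further, had 1.36 and 1.10 (1.23 ± 0.18, SD, n = 2) and peaked at 2.30. The windows at the summits were close to each other, at 1.74 ± 0.10 and 1.73 ± 0.03 (SD, n = 2, limma adjusted p = 0.000304 for each). Region 8 began at the edge of 679 bp without probes, and its side toward region 7 was seen only beyond that stretch, where the window before it still had a mean of 0.61. The start of Qrfpr, 11.96 kb from region 8, had -0.09 and 0.10, so its sign differed between arrays.

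Region 6 lay between genes, 21.8 kb upstream of D3Ertd254e (named Zfp267 in RefSeq), which encodes a zinc finger protein. Its ratios were 0.97 and 0.90 (0.93 ± 0.05, SD, n = 2). Its match CCACCAGAGGGC, 78 bp from the summit on the minus strand, fitted the core without mismatch, as did that of region 8 on the plus strand. No other match in the 17 regions did so. The match of region 6 was not covered by a probe, the nearest being 21 bp away, whereas that of region 8 overlapped 2. A stretch of 1355 bp without probes ended 30 bp before the summit of region 6. Regions 6, 7 and 8 thus followed each other within 72.6 kb, with a core match on the minus strand in the first and on the plus strand in the others.

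Region 5 (chr3:35958444-35959131) had the highest mean of all 17, at 1.79 on replicate 1 and 1.77 on replicate 2 (1.78 ± 0.01, SD, n = 2), over 9 probes. It lies 5.86 kb upstream of Acad9, which encodes a mitochondrial acyl-CoA dehydrogenase that takes part in the assembly of respiratory complex I. The nearest stretch of at least 300 bp without probes (681 bp) began 90 bp past the summit, so the far flank of region 5 was not measured. The window at the start of Acad9 had 0.36 and 0.32 and did not pass the threshold (limma adjusted p = 0.0755).

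Anxa5 encodes annexin A5, which binds phosphatidylserine in the presence of calcium. Around it, 6 regions lay within 55.0 kb. Region 9 (chr3:36340173-36344047), the longest at 3875 bp, lies downstream of the gene, between Anxa5 and Qrfpr. Its mean was 1.25 on replicate 1 and 1.26 on replicate 2, with a running median of up to 2.26. Region 10 is next to it and showed the widest spread of all regions (0.96 and 0.56, mean 0.76 ± 0.29, SD, n = 2), and 9 of its 11 probes were above 0 on both arrays. Region 11 lies in the first part of the gene, 1.20 kb from its start, at 0.76 and 0.82. Region 12 lies in an intron of the neighbouring gene 1810062G17Rik, 0.357 kb past that gene's start, at 0.74 and 0.67 (0.70 ± 0.05, SD, n = 2), the lowest mean of the 17. Regions 13 and 14, 19.1 kb and more beyond, were taller.

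Regions 13 and 14 lie between genes with summits 1.69 kb apart, and 551 bp without probes separate them. Region 13 had 1.68 and 1.35 (1.51 ± 0.23, SD, n = 2) and region 14 had 1.56 and 1.60 (1.58 ± 0.03, SD, n = 2). Whether they form 1 stretch was not measured. In region 13 there were 2 matches to the core with 1 mismatch, CCGCCAGGTGGC at 88 bp after the summit and CCACCACAGGGC at 276 bp before it, both on the minus strand. Region 14 held none within 500 bp.

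At the left end of the interval, regions 1 and 2 flanked the start of Atp11b, which encodes a phospholipid flippase of the P-type ATPase family. Region 1, 3.50 kb upstream, had 0.93 and 0.89 (0.91 ± 0.02, SD, n = 2). Region 2, 1.03 kb past the start, had 0.94 and 1.04 (0.99 ± 0.07, SD, n = 2) over 9 probes. Region 2 had a running median of 0.86 over both arrays, and its summits on each array alone lay 1370 bp apart, the furthest of the 17. The median distance between the summits of the arrays was 0 bp, and 12 of the 17 lay within 200 bp.

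Region 17, the last of the interval, lay between genes, 21.9 kb upstream of 4932438A13Rik. Its ratios were 1.34 and 1.13 (1.24 ± 0.15, SD, n = 2). Its core match, CCACTAGGTGGA, had 1 mismatch, was covered by a probe and lay 97 bp before the summit. The second highest window of the interval, with a mean of 2.09 ± 0.33 (SD, n = 2, limma adjusted p = 0.000379), was at region 17 but rested on 3 probes, with 818 bp without probes starting 31 bp past the summit.

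Between these groups few windows were called higher in Cy3. The stretches were cut between regions called from the same probe values, so this is in part built in. Of all windows of the array 4.63% were called higher in Cy5. The longest distances between neighbouring summits were 232 kb from region 8 to 9 and 208 kb from 2 to 3. In the stretch from region 8 to region 9, 156 windows had a median of -0.07 and a highest value of 0.39. None of them was called higher in Cy3 and 9 were called higher in Cy5. The stretch from region 2 to 3, with the body of Atp11b and all of Dcun1d1, had a median of -0.15 over 152 windows. It held 1 call higher in Cy3 (0.40, in an intron of Dcun1d1, which encodes a factor that promotes neddylation of cullins) and 11 higher in Cy5. The stretch from region 4 to 5 had a median of -0.18, with 7 of 57 windows called higher in Cy5, and that from region 17 to the end of the interval had -0.24, with 6 of 46. Neither held a call higher in Cy3.

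**Figure D3:**
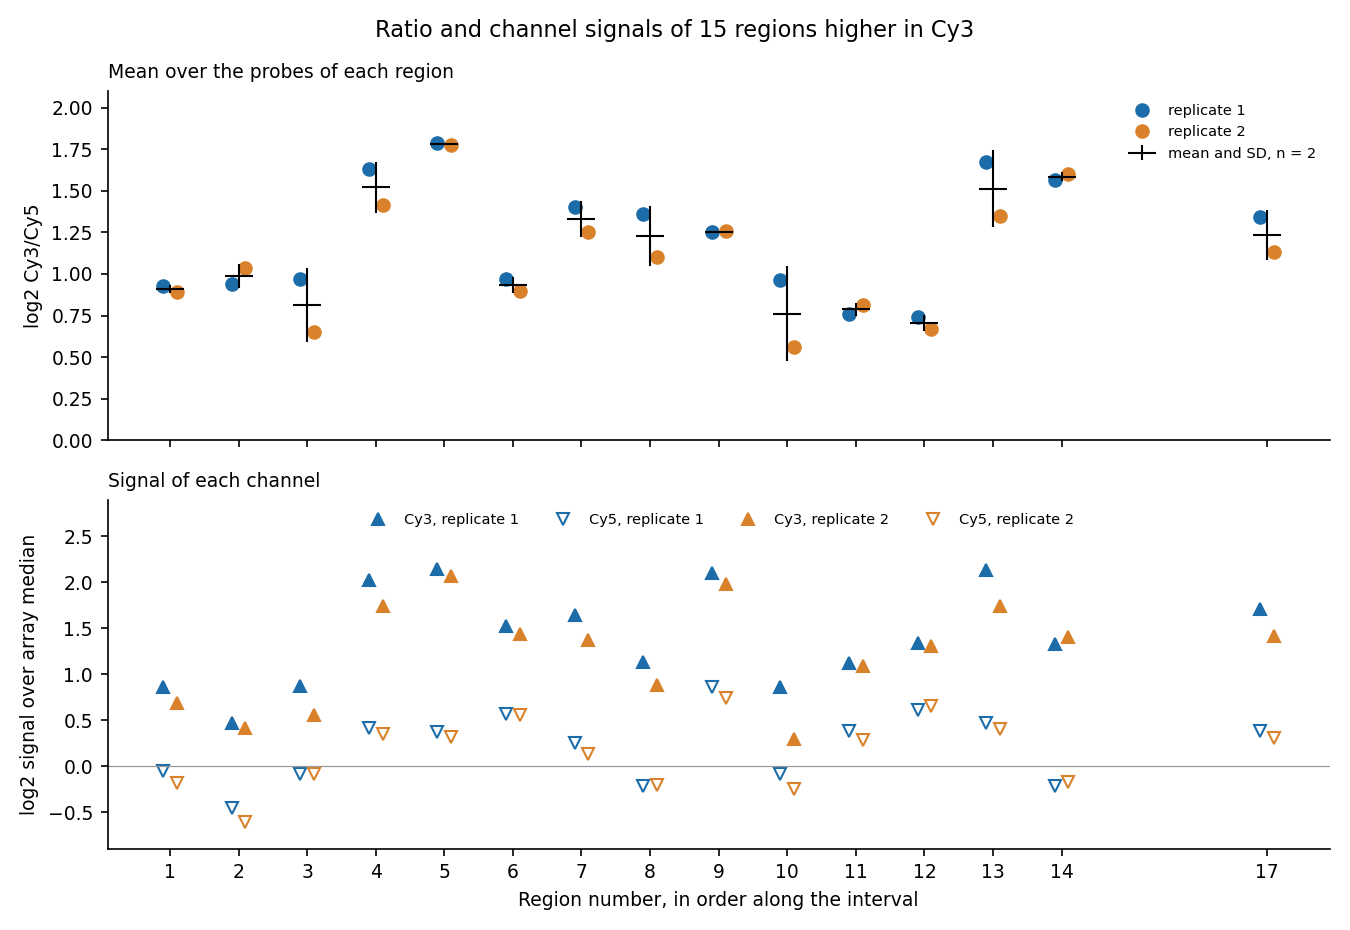
Mean log2 Cy3/Cy5 over the probes of each region on both arrays with the mean and SD of the 2 values (upper panel), and the log2 signal of Cy3 and Cy5 over the median of the array (lower panel), for 15 of the 17 regions on the x axis. Cy3 lies above the array median at each of them, whereas Cy5 lies from -0.61 to 0.86.

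The regions were called for a high ratio of Cy3 to Cy5, so the signals of the channels there are a description. The log2 signal of Cy3 over the array median was above 0 in all 17 regions on both arrays, with a median of 1.34 on replicate 1 and 1.37 on replicate 2. That of Cy5 was above 0 in 10 of the 17 on each array, with medians of 0.37 and 0.29. In windows outside the regions the medians were -0.19 and -0.20 in Cy3 and -0.07 and -0.13 in Cy5. Region 9 was among the brightest in Cy5 (0.86 and 0.74). Region 2 was the dimmest in Cy5 (-0.46 and -0.61), and its Cy3 was 0.47 and 0.41.

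The annotation put 8 regions between genes, 8 in introns and 1 in an exon. Of the 922 windows of the interval 465 lay between genes, 392 in introns, 44 in exons and 21 in untranslated regions. The places of the regions were not tested against these numbers. Of the 14 protein-coding genes that start in the interval 6 held a region, among them Atp11b, Mccc1, Qrfpr, Anxa5 and 1810062G17Rik. The share of genes with a region on the whole array is not given here. Of the 14 windows at a start 2 (14.3%) were called higher in Cy3 by limma, against 7.69% of the 117 such windows on the whole array, and none was called higher in Cy5. Without adjustment 4 had a limma p under 0.05, all higher in Cy3, and none was lower. The share of gene starts on the whole array at that unadjusted threshold is not given here. The start of 1810062G17Rik was the highest (0.79 and 0.75, mean 0.77 ± 0.03, SD, n = 2, adjusted p = 0.00502). That of Atp11b followed (0.44 and 0.53, mean 0.49 ± 0.07, SD, n = 2, adjusted p = 0.0303), a call lost with the deposited values (0.40, adjusted p = 0.0700). Both windows overlap a region described above.

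**Figure D4:**
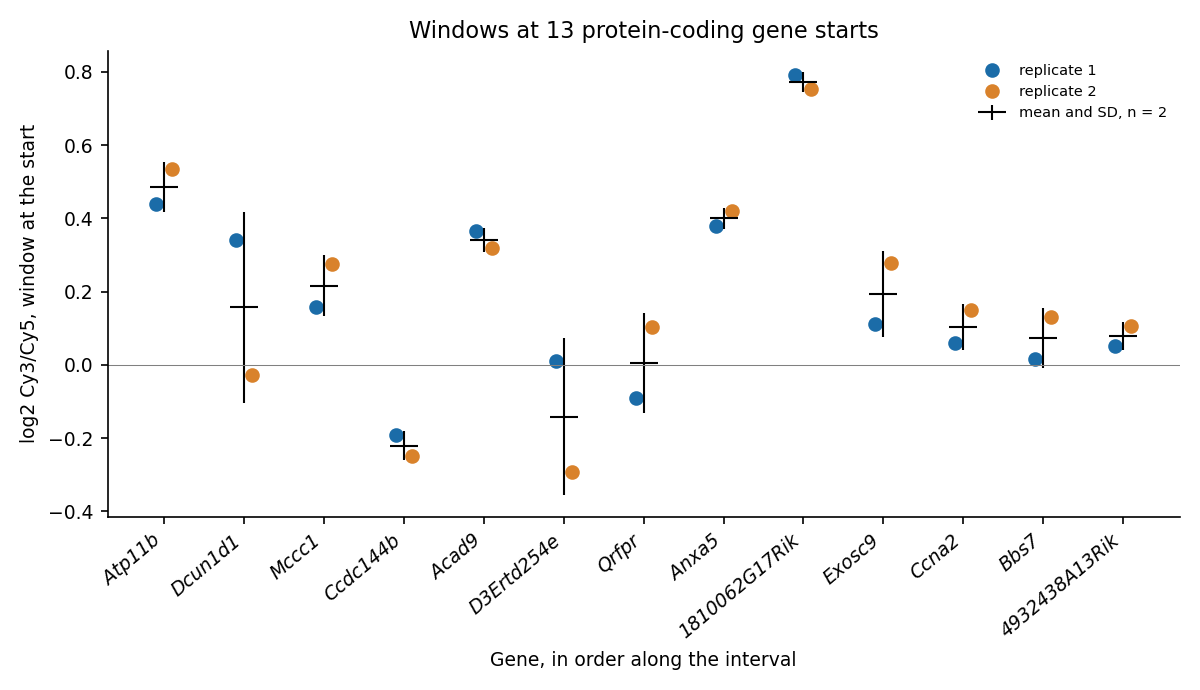
Log2 Cy3/Cy5 of the window at the start of 13 of the 14 protein-coding genes (y axis), with both arrays as points and the mean and SD of the 2 values in black, in order along the interval (x axis). The start of 1810062G17Rik is highest, Atp11b and Anxa5 follow, and Ccdc144b is the 1 start below 0 on both arrays.

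The start of Anxa5, in the window next to that of 1810062G17Rik, had 0.38 and 0.42 and stayed just beyond the threshold (0.40 ± 0.03, SD, n = 2, adjusted p = 0.0507). It passed under 6 alternatives, among them no background correction (limma adjusted p = 0.0240). It did not pass with the GC trend removed (0.28, limma adjusted p = 0.160) or with loess (0.32, 0.0947). Nor did it pass with the deposited values (0.0835) or with probes well above background (0.0567). Exosc9, a subunit of the RNA exosome, and Ccna2, cyclin A2 of the cell cycle, had 0.19 ± 0.12 and 0.10 ± 0.06 (SD, n = 2) at their starts. Bbs7, a subunit of the BBSome that serves the primary cilium, had 0.07 ± 0.08 (SD, n = 2). The start of 4932438A13Rik, 21.9 kb from region 17, had 0.08 ± 0.04. Mccc1 had 0.22 ± 0.08 and Dcun1d1 0.16 ± 0.26, with a sign that differed between arrays (0.34 and -0.03). D3Ertd254e also differed in sign (0.01 and -0.29). Ccdc144b, at -0.19 and -0.25, was the only start below 0 on both. The 14 starts had a median of 0.13, against 0.09 for the starts on the whole array.

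The search for the CTCF core asked how many summits had it nearby, since the study read the direction of loop anchors from the strand of the motif. The study searched under its CTCF peaks. Here the search was around summits of the Rad21 arrays, with no CTCF data, so no anchor or direction was measured. CCANNAGNNGGC was present within 500 bp of the summit in 6 of the 17 regions (35.3%). Of the other 192 regions of the array 75 (39.1%) held it, and of the stretches of 1001 bp around the windows of the array 5.65%. The core with at most 1 mismatch was within 500 bp in 9 of the 17 (52.9%), in 65.1% of the other regions and in 7.74% of the stretches. Matches were divided between the strands, with 6 on the plus and 5 on the minus strand. Of these 11, 5 were not covered by a probe, namely all 4 copies of the shared 12 letters and the match of region 6. Without those 4, the pattern CCANNAGNNGGC remained in regions 6 and 8.

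Height and letters did not go together in every case. The 9 regions with a core match had running medians from 0.82 to 2.86 with a median of 1.67. The 8 without had a median of 1.06, and the highest of them was region 9 at 2.26. Read by windows, the pattern was present in 46 windows of the interval, of which 8 (17.4%) were called higher in Cy3, against 13.9% of the 844 windows with the pattern on the whole array. All 8 touched a region. The other 38 had a median of -0.06 and none was called higher in Cy3. This split is in part built in, because regions and windows share their probe values.

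Windows higher in Cy5 were of another kind. Their means ran from -0.95 to -0.41. None touched a region higher in Cy3, which is in part built in because both come from the same probe values. Introns of Ccdc144b held 6 among 24 windows (25.0%), against 26 among the 392 intron windows of the interval and 5.42% of all its windows. Those of Gm15952 held 1 among 5 (20.0%), of 4932438A13Rik 5 among 31 (16.1%) and of Bbs7 3 among 30 (10.0%). Those of Atp11b held 6 among 74 (8.11%), of Dcun1d1 2 among 30, of Mccc1 1 among 28 and of Qrfpr 1 among 33. Those of Acad9 and Anxa5 held 0 among 20 and 26. The lowest window, in an intron of Atp11b (chr3:35682000-35682999), had -1.27 on replicate 1 and -0.63 on replicate 2 (-0.95 ± 0.45, SD, n = 2, limma adjusted p = 0.0157). It was -0.18 with normexp (adjusted p = 0.291) and -0.42 with loess (0.0771), lost its call with the deposited values (0.0669) and had no value with probes well above background. Next came a window in Ccdc144b with -1.15 and -0.67 (adjusted p = 0.0103), which did not pass with probes well above background (0.0985) or with the deposited values (0.0590). The third, at an untranslated part of Ccdc144b, had -1.33 and -0.36 on 4 probes and did not pass (adjusted p = 0.0532). The fourth lay close to the first in Atp11b (-0.63 and -0.97, adjusted p = 0.0103), and the fifth between genes (-0.82 and -0.72, adjusted p = 0.00553). With the trended, robust prior none of the 5 passed (adjusted p from 0.117 to 0.139).

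**Figure D5:**
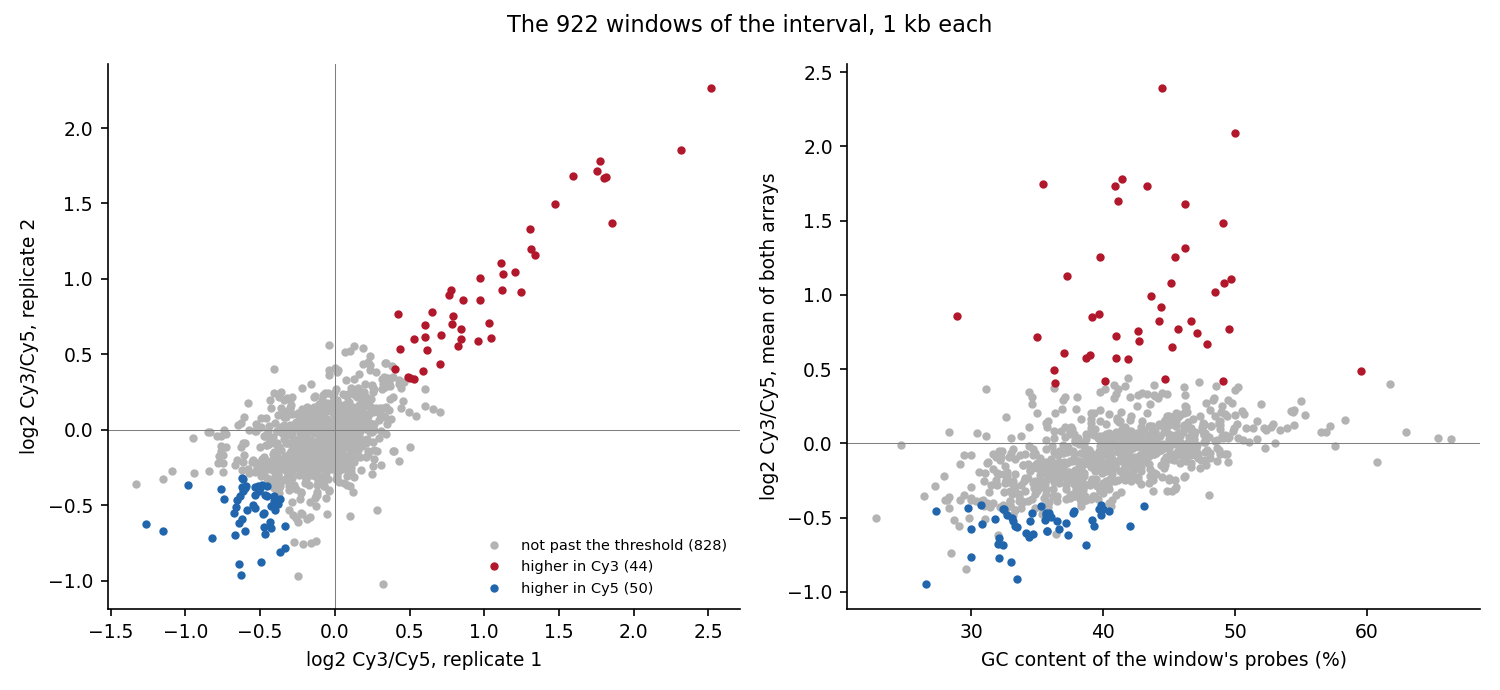
Left, mean log2 Cy3/Cy5 of the 922 windows on replicate 1 (x axis) against replicate 2 (y axis). Right, GC content of the probes of each window in percent (x axis) against the mean of both arrays (y axis). Red marks the 44 windows higher in Cy3, blue the 50 higher in Cy5 and grey the rest. Red windows run along the diagonal up to 2.39, and blue windows lie at low GC content.

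GC content moved with this side of the data. The windows called higher in Cy5 had a mean probe GC content of 34.9%, against 40.6% for all windows of the interval and 43.2% for those called higher in Cy3. Over the 881 windows outside the regions, which share both arrays, the mean ratio correlated with GC content (Pearson r = 0.56, Spearman rho = 0.60). With the GC trend removed on each array 12 windows were called higher in Cy5 and 51 higher in Cy3. With the deposited values 12 and 37 were called, and with a trended, robust variance prior 0 and 52. Calls higher in Cy3 made up 46.8% of all calls in the interval, 67.2% after loess and 19.7% when arrays were centred on the mode. The part of GC content in these calls was not tested beyond this.

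On the Cy5 side 1 region passed the threshold, out of 4 on the whole array. It held the centre of 1 of the 922 windows (0.108%), which was also the only such window of the array (0.00669% of all windows). It lies in an intron of Ccdc144b (chr3:35919252-35919551), had -1.60 and -1.16 (-1.38 ± 0.31, SD, n = 2) over 5 probes, and was called on replicate 1 alone but not on replicate 2. Of its 5 probes 2 were well above background in both channels on both arrays, and its GC content was 29.7%. Both channels were dim there, with log2 signals of -3.60 and -3.72 in Cy3 and -1.99 and -2.54 in Cy5. The thresholds of the 2 sides differed (0.64 for Cy3 and 1.11 for Cy5). At the Cy3 threshold 12 regions were called on the Cy5 side of the interval and 164 on the array, with a median GC content of 32.6% in the interval. The largest of these 12 reached 1.18 in size, below 8 of the 17 regions higher in Cy3. The other 9 had running medians from 0.82 to 1.11, a height that regions of either sign reached here.

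Over the 922 windows the means of the arrays correlated with Pearson r = 0.74 and Spearman rho = 0.56, and over the 881 windows outside the regions with 0.50 and 0.49. Over all windows of the array the values were 0.69 and 0.54. These are descriptions across windows, which are not independent, and the regions were chosen for high values on both arrays together.

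The rest of the same tiled segment of chromosome 3, to the left of the interval, served for comparison. Of its 2212 windows 56 (2.53%) were called higher in Cy3 and 112 (5.06%) higher in Cy5, and 19 (0.859%) were above 1 log2 unit. It held 21 regions higher in Cy3, or 7.50 per Mb, against 14.2 per Mb in the interval. This difference was not tested.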

How the data were processed

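Agilent arrays of RAG cells, with 2 colours each, were read as the authors deposited them. The intensities are Feature Extraction 10.5.1.1 output on mm9 positions, per the file headers, with spatial detrending, background subtraction and 1 linear dye factor per channel. The log10 ratios in the deposited files served only as a check. The log2 table the authors deposited was, per the methods, made with Ringo with no parameters given, and was matched to probes ordered by number as text (3 left out) and used as an alternative. Other deposited columns, quality marks of 0 or 1, gave outlier, saturation and background flags.

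Control and outlier spots were left out, copies of a probe averaged, and log2 Cy3/Cy5 had the median of its array subtracted, without loess. Windows of 1 kb with at least 3 probes were fitted with limma 3.58.1 (lmFit, eBayes; R 4.3.3) against 0, two-sided, with Benjamini-Hochberg adjustment at 0.05. Regions came from a Ringo-type caller written anew: running median within 400 bp (at least 5 values), a threshold at quantile 0.99 of the values below the mode and their mirror image, 3 or more positions, and gaps under 600 bp joined. The null of one side comes from the other side's values. Genes come from GENCODE M1 (NCBIM37), with names checked against RefSeq. Named were all regions, the 10 highest and 5 lowest windows and all protein-coding gene starts. The results at 1 gene and its 2 regions are counted in the totals but not reported here. Sequence was printed for the 6 tallest regions and those near gene starts, and, chosen after their values were seen, for the shared 12 letters. Both steps were tested on simulated data. Planted regions and shifted windows were mostly recovered, but the region caller also called regions in noise where none had been planted, and in most runs the share of unshifted windows among the calls was above the nominal rate. The interval, members and lists were chosen with earlier results of these data known. Python 3.11.15, numpy 2.4.6 and pandas 2.3.3 were used.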

Additional observations from a re-analysis of the deposited data

How the results depend on the processing

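For regions higher in Cy3, all alternatives gave 14 to 22 regions except removal of the GC trend, which gave 30, and each alternative that used both arrays overlapped at least 14 of the 17. Regions holding the motif pattern numbered 5 to 9, with 7 when the whole region and 500 bp on either side were searched, an alternative chosen after seeing the data. Windows higher in Cy3 moved past 1.5 times their number only with 500 bp windows. There 70 of 1514 were called, against 44 of 922 at 1 kb. The larger count comes from more windows and is not a larger share. Windows higher in Cy5 depended most on the processing. They numbered 102 with no background correction and 236 with centring on the mode. With other window lengths they numbered 93 of 1514 at 500 bp and 75 of 522 at 2 kb, against 50 of 922 at 1 kb. With loess there were 22 and with probes well above background in both channels 23. With the GC trend removed there were 12, with the deposited values 12 and with the trended robust prior of limma 0. The single region higher in Cy5 was lost (0) with normexp, no background correction, loess, probes well above background, the GC trend removed, a running median within 600 bp, the stricter null quantile and at least 6 positions. It became 121 regions at the 0.95 quantile and 12 at the common threshold. Of the gene starts 4 were called with normexp and 4 with no background correction, but 1 with the deposited values, where Atp11b was lost. Windows with the core at no more than 1 mismatch gave 13 calls higher in Cy3 among 62 in the interval. On the whole array 184 of 1155 such windows (15.9%) were called. At the start of D3Ertd254e the mean turned to 0.11 with normexp, 0.17 with loess and 0.040 with the GC trend removed. At that of Qrfpr it turned to -0.017 with loess, -0.064 with centring on the mode and -0.071 with the GC trend removed. The cause of these changes was not tested.

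Leaving out 1 array gave 15 to 19 regions higher in Cy3 and 2 to 5 higher in Cy5. With 1 array left, window counts have no test, since no residual degrees of freedom remain. No paired analysis was possible because the series holds 1 group. With 2 arrays the variance of a window rests on the prior shared by all windows (6.02 prior degrees of freedom), and the window counts depend on it.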

Other observations

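Ratios over the body of Ccdc144b were lower than over the genes on either side. Over the 271 probes of its body the mean log2 Cy3/Cy5 was -0.33 ± 0.04 (SD, n = 2), against 0.21 ± 0.03 over Mccc1 and 0.01 ± 0.03 over Acad9 on either side of it. Part of the value of Mccc1 comes from its 2 regions. Other bodies were about as low, with -0.31 ± 0.15 over the tiled part of 4932438A13Rik, -0.29 ± 0.23 over D3Ertd254e and -0.26 ± 0.10 over Atp11b (SD, n = 2). The windows of Ccdc144b had a mean GC content of 37.6%, against 42.1% for Mccc1 and 46.7% for Acad9, and outside the regions ratio and GC content correlated (Pearson r = 0.56). These are values with no test.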
